A study of Mus musculus with 3 samples.

Results

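Ctla4, Icos, Btla, Pdcd1, Lag3, Gzmb and Prf1 were read in CD138hi cells that express an IL-10 reporter and in B220+ spleen cells of the same kind of mouse. They were chosen by name as receptors that restrain or modulate lymphocyte activation and as genes of the cytotoxic granule, and they are 7 of the 16390 genes with a named probe on the array. The choice was made with earlier results of these data known. Each of the 7 has 1 probe, printed as 1 spot. Freshly isolated cells of 3 populations were obtained with a cell sorter. All came from the IL-10 Venus reporter mouse, in which a fluorescent protein, Venus, marks cells that express the cytokine IL-10. The first population was Venus+ cells of the bone marrow with high CD138 (syndecan-1, a surface marker of plasmablasts and plasma cells), the second was Venus+ cells of the spleen with high CD138, and the third was spleen cells carrying B220, the B lineage form of CD45. No gate on Venus or CD138 is given for the B220+ cells. The number of mice behind each sort, any pooling, and the age and strain of the animals are not stated by the labels. There was 1 array for each population, so no comparison has a replicate check and no p-value is given.

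CTLA-4, ICOS, BTLA and PD-1, the product of Pdcd1, are related immunoglobulin-family receptors, as is CD28, and are best known from T cells. CTLA-4 takes up CD80 and CD86, which CD28 also binds. PD-1 and BTLA recruit tyrosine phosphatases to the antigen receptor, and BTLA is abundant on resting B cells. ICOS is a costimulatory and not an inhibitory receptor, so the name "inhibitory receptors" covers the other 4. LAG-3, a relative of CD4, binds MHC class II and in mice has been used as a surface marker of IL-10-producing plasma cells. In cytotoxic T cells and natural killer (NK) cells, perforin, the product of Prf1, opens the target membrane to granzyme B, the product of Gzmb. In human B cells, granzyme B has been described without perforin.

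Ctla4 and Gzmb had the largest ratios of the 7 genes against B220+ cells, and Btla the lowest, so the promoter windows of these 3 genes are shown first. They are from RefSeq on build GRCm38.p6, 5′ to 3′ on the gene's strand, and run from 250 bases before to 50 bases after the annotated start. The windows are chr14:56262285-56262584 on the minus strand for Gzmb, chr1:60908775-60909074 on the plus strand for Ctla4, and chr16:45224087-45224386 on the plus strand for Btla. The start used for Btla lies inside the span of its gene. Capitals mark every match to TGANTCA, the letters bound by AP-1 and BATF-containing dimers, or to AACCACA, the letters bound by Runx factors, on either strand.
Gzmb: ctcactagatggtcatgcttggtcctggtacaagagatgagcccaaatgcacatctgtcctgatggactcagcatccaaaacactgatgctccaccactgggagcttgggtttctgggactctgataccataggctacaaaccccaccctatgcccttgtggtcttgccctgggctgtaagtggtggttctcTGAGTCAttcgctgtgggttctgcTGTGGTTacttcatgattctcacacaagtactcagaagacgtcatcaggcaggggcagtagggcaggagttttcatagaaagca
Ctla4: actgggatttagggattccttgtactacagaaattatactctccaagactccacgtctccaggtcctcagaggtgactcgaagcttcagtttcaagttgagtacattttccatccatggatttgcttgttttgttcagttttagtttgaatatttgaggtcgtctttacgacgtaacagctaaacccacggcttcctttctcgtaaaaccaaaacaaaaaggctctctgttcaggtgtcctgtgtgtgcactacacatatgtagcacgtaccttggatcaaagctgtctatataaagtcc
Btla: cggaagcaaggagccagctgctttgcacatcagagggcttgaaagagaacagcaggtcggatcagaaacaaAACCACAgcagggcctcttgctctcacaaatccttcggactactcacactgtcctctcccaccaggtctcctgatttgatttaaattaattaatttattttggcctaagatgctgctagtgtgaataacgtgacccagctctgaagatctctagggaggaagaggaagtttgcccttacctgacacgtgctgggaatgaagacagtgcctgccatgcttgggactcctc
Windows were on hand for 5 of the 7 genes, those above and those of Pdcd1 and Prf1, and Icos and Lag3 are named only. TGANTCA was found in 1 of the 5, as TGAGTCA 58 bases before the Gzmb start, against 7.81% of 32851 mouse promoter windows of the same length. AACCACA, added to the search after the sequences were seen, was found in 2 of the 5, as TGTGGTT 34 bases before the Gzmb start and as AACCACA 179 bases before the Btla start, against 5.27% of all windows. GAAA followed after any 2 bases by another GAAA, the letters bound by interferon regulatory factors, was found in 0 of the 5, against 3.44% of all windows. The motifs did not overlap one another in these windows. A match describes letters and is not a measured binding site.

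The values below are normalized signals. For each spot, the level of the blank spots was subtracted from the median intensity, and the median of all detected probes of an array was set to 25, the recipe of the authors. A signal is comparable between arrays for 1 probe, but not between genes. A probe counted as detected when its spot passed the mean of the blank spots by 2 SD, which held for 67.6% of 23473 probes in bone marrow Venus+ cells, 73.4% in spleen Venus+ cells and 72.1% in B220+ cells. Each log2 ratio carries a spot error, made from the spread of blank spots and of positive control spots on its arrays, which leaves out how far mice or sorts would differ. The sort labels were checked with marker genes. Of 9 plasma cell markers with a probe, 9 were at least 2-fold higher in each Venus+ population than in B220+ cells, and of 9 mature B cell markers with a probe, 9 were at least 2-fold lower. Sdc1, which encodes CD138, had 220 in bone marrow Venus+ cells and 128 in spleen Venus+ cells, against 2.49 in B220+ cells. Ms4a1, which encodes CD20, had 333.5 in bone marrow Venus+ cells and 2619 in spleen Venus+ cells, against 10149.1 in B220+ cells.

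Both Venus+ populations had more signal than B220+ cells for Ctla4, Icos, Lag3 and Gzmb and less for Btla. Pdcd1 was near its B220+ level in the spleen and lower in the bone marrow, and Prf1 was below or near the detection limit in the Venus+ populations and dim in B220+ cells. In spleen Venus+ cells against B220+ cells, 4 of the 7 genes (Ctla4, Icos, Lag3, Gzmb) were higher by a factor of 2 or more and 2 (Btla, Prf1) were lower by as much. Of the 12969 genes detected on at least 1 of these arrays, 18.1% passed the same threshold upward, 15.9% downward and 34.0% in either direction. In bone marrow Venus+ cells against B220+ cells, the same 4 passed the threshold upward and 2 (Btla, Pdcd1) passed it downward, against 23.9% of 12877 genes upward, 30.1% downward and 54.0% in either direction. The median log2 ratio of the genes detected on both arrays was 1.92 over 7 genes in the spleen, beside -0.02 over all 11618 such genes, and 2.05 over 6 genes in the bone marrow, beside -0.24 over 10813. These comparisons share the B220+ array, so they are not independent of each other. The 7 genes were chosen with earlier results of these data known, so their counts and medians only describe them and are not a test against all genes. In sorted bulk RNA, fewer cells with a transcript and less of it per cell cannot be told apart.

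**Figure D1:**
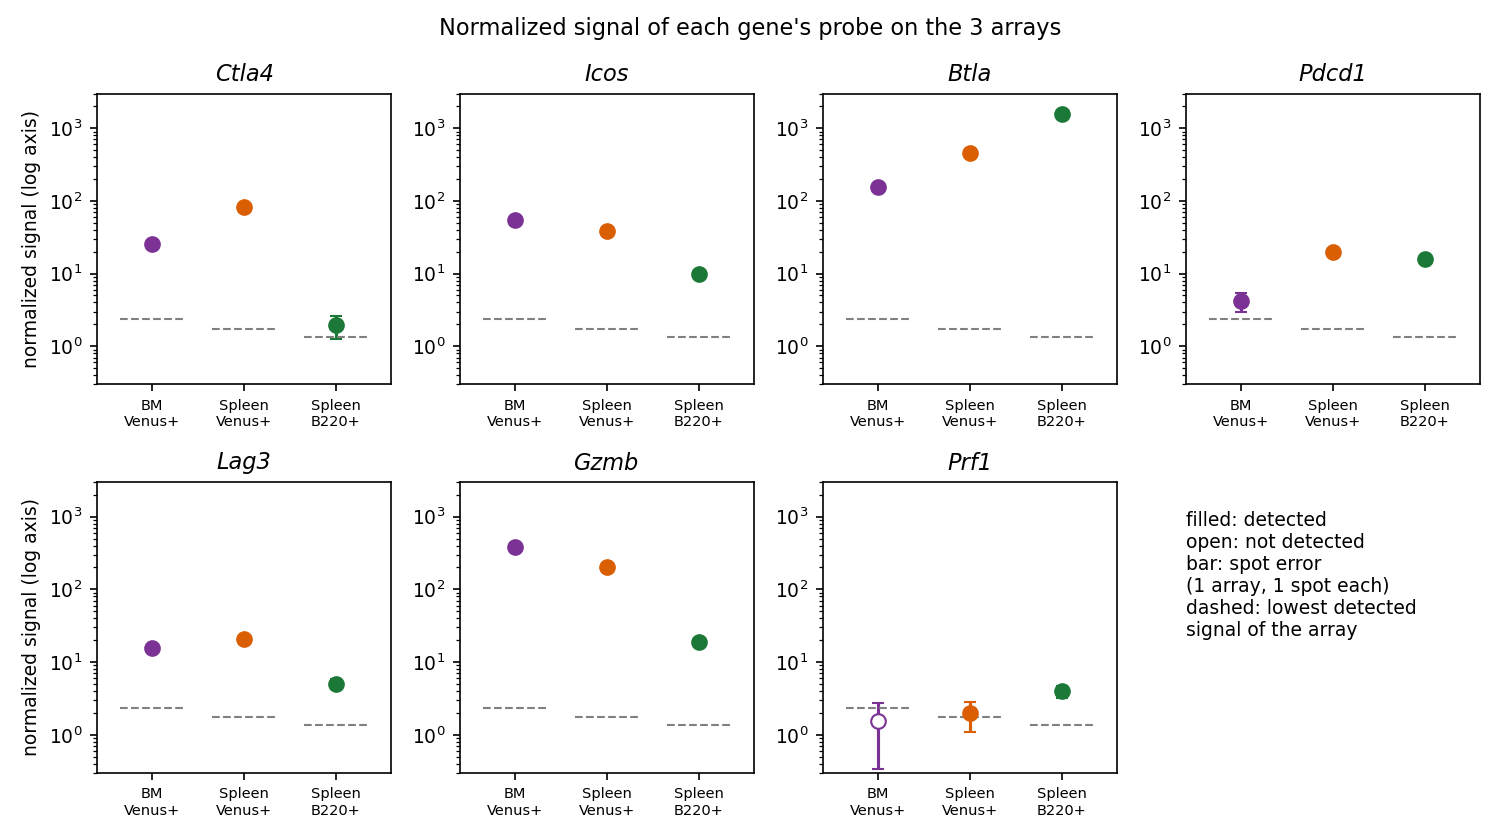
Normalized signal (log axis) of each of the 7 genes on the 3 arrays, 1 point for each array with its spot error. An open point is a probe that was not detected, and the dashes give the lowest detected signal of an array. Ctla4 stands at 25.3 and 83.1 in the Venus+ populations and at 1.95 in B220+ cells, Btla runs the other way, and Prf1 lies below the lowest detected signal of bone marrow Venus+ cells and just above that of spleen Venus+ cells.

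Ctla4 (chromosome 1, 60909025 to 60915832, GRCm38.p6) had a signal of 25.3 in bone marrow Venus+ cells and 83.1 in spleen Venus+ cells, against 1.95 in B220+ cells. Its log2 ratio to B220+ cells was 5.41 ± 0.51 in the spleen, a 42.6-fold difference, and 3.69 ± 0.52 in the bone marrow, a 12.9-fold difference. Of all genes detected on both arrays, 40 had a larger ratio in the spleen and 209 in the bone marrow. The size of both ratios rests on a dim B220+ spot, at 47.4 on the scanner scale against a detection limit of 46.2. On that array 24.0% of the 1102 spots printed without a probe were at least as bright, although only 2.71% of the blank spots were. With the background level and the detection limit both taken from the spots without a probe, Ctla4 was not detected in B220+ cells. It was also not detected there with a limit of 3 SD above the blank mean, nor with the local background. With the local background, the log2 ratios became bounds of 3.08 in the spleen and 2.13 in the bone marrow. With the normexp background correction, which pulls dim spots together, the log2 ratios were 1.72 in the spleen and 0.82 in the bone marrow, so the bone marrow ratio was then under 2-fold.

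Icos (chromosome 1, 60960773 to 61000322), the neighbour of Ctla4 on the chromosome, had 54.9 in bone marrow Venus+ cells and 37.9 in spleen Venus+ cells, against 9.999 in B220+ cells. The order of the Venus+ populations was the opposite of that for Ctla4. Its log2 ratio to B220+ cells was 2.46 ± 0.17 in the bone marrow and 1.92 ± 0.17 in the spleen, which is 5.49-fold and 3.79-fold. Both were under 2-fold with normexp, at 0.96 in the bone marrow and 0.73 in the spleen. The local background printed beside the bone marrow Icos spot was 101, against 99.6 for the spot itself, and with that correction Icos gave no ratio in any of the 3 comparisons.

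Btla (chromosome 16, 45223705 to 45252895) had 154 in bone marrow Venus+ cells and 450 in spleen Venus+ cells, against 1580.3 in B220+ cells. All 3 signals stood far above the detection limit, and the 3 populations were in the order of the mature B cell marker Ms4a1. Not all such markers had that order. Of 9 with a probe, 5 were at least 2-fold lower in bone marrow than in spleen Venus+ cells. Fcer2a was higher, with 166 in the bone marrow and 62.4 in the spleen. The log2 ratio of Btla to B220+ cells was -3.36 ± 0.13 in the bone marrow, 10.3-fold lower, and -1.81 ± 0.14 in the spleen, 3.51-fold lower. It stayed at least 2-fold lower under all 10 alternative settings of the values. Of these, the mean of probes could not change a gene with 1 probe. The local background was 185 beside a bone marrow spot of 204 and 574 beside a spleen Venus+ spot of 619, and with that correction the ratio was -5.03 in the bone marrow and -4.10 in the spleen.

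Pdcd1 (chromosome 1, 94038305 to 94052553) had 4.17 in bone marrow Venus+ cells and 19.9 in spleen Venus+ cells, against 15.7 in B220+ cells. The spleen populations differed by a log2 ratio of 0.34 ± 0.16, which is 1.26-fold and about 2.06 spot errors, and this did not pass 2-fold. Bone marrow Venus+ cells were 3.78-fold lower than B220+ cells, a log2 ratio of -1.92 ± 0.43. The bone marrow spot was dim, at 45.7 against a detection limit of 43.7, and 2.72% of the spots without a probe on that array were at least as bright. With normexp the bone marrow ratio was -0.19, and with the local background the gene was not detected in either bone marrow Venus+ or B220+ cells.

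Lag3 (chromosome 6, 124904359 to 124912434) had 15.7 in bone marrow Venus+ cells and 20.8 in spleen Venus+ cells, against 5.03 in B220+ cells. The Venus+ populations were close to each other and both above B220+ cells. The log2 ratio to B220+ cells was 1.65 ± 0.26 in the bone marrow, 3.13-fold, and 2.05 ± 0.24 in the spleen, 4.13-fold. Both were under 2-fold with normexp, at 0.49 in the bone marrow and 0.58 in the spleen, and past 2-fold with the other 9 settings of the values. The mean of probes, 1 of these, could not change a gene with 1 probe.

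Gzmb (chromosome 14, 56258836 to 56262334), whose promoter window holds both motif matches shown above, had 385 in bone marrow Venus+ cells and 202 in spleen Venus+ cells, against 18.8 in B220+ cells. The Venus+ populations were the high ones. The log2 ratio to B220+ cells was 4.36 ± 0.14 in the bone marrow, 20.5-fold, and 3.43 ± 0.15 in the spleen, 10.8-fold. Of all genes detected on both arrays, 129 had a larger ratio in the bone marrow and 159 in the spleen. The local background beside the bone marrow Gzmb spot was 445, against 450 for the spot, so with that correction Gzmb was not detected in the bone marrow. With normexp the log2 ratio was 2.71 in the bone marrow and 2.05 in the spleen.

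Prf1 (chromosome 10, 61297751 to 61304684) was not detected in bone marrow Venus+ cells, where its measured signal was 1.52 and the lowest detected signal 2.35. It had 1.96 in spleen Venus+ cells, beside a lowest detected signal of 1.74, against 3.99 in B220+ cells. The spleen Venus+ signal was 2.03-fold below that of B220+ cells, a log2 ratio of -1.02 ± 0.70, which is 1.47 spot errors and was under 2-fold with 3 of the alternative settings and positive, at 0.11, with normexp. The bone marrow signal was at least 1.70-fold lower than in B220+ cells. Of the spots without a probe, 52.0% were at least as bright as the Prf1 spot in bone marrow Venus+ cells, 6.72% in spleen Venus+ cells and 0.817% in B220+ cells. In the Venus+ populations, where Gzmb was bright, Prf1 was thus below or just above the limit of detection.

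**Figure D2:**
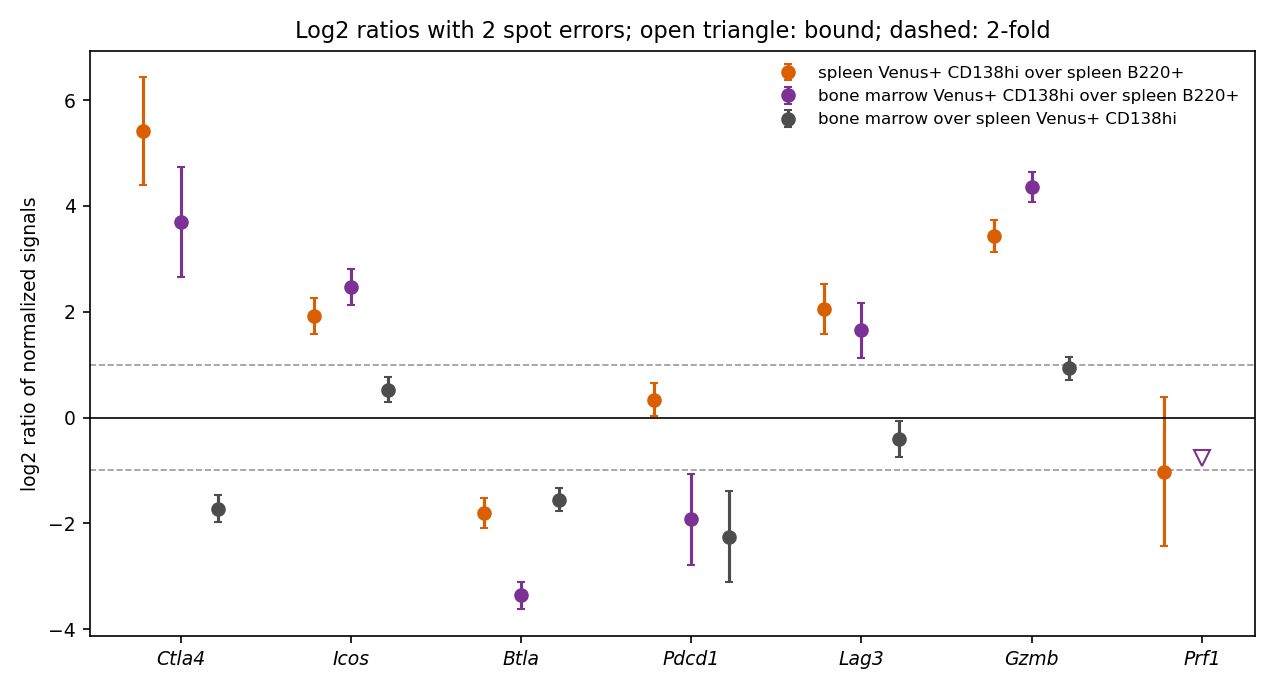
Log2 ratio of each of the 7 genes in the 3 comparisons, with bars of 2 spot errors, a triangle for a bound and dashed lines at 2-fold. Ctla4, Icos, Lag3 and Gzmb lie above the upper line in both Venus+ populations against B220+ cells and Btla below the lower line, and Pdcd1 lies below it only where the bone marrow array is compared.

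Between the Venus+ populations, bone marrow cells had less Ctla4, Btla and Pdcd1 signal than spleen cells, and none of the 7 genes was at least 2-fold higher. That made 3 of the 7 at least 2-fold lower, against 16.1% of 12595 genes, and 0 of 7 at least 2-fold higher, against 4.49%, with 20.6% of all genes past the threshold in either direction. The log2 ratio of bone marrow over spleen was -2.25 ± 0.43 for Pdcd1, 4.77-fold lower, with 153 of 11352 genes lower still. It was -1.72 ± 0.13 for Ctla4, 3.29-fold lower, and -1.55 ± 0.11 for Btla, 2.93-fold lower. With normexp, Pdcd1 was at -0.35, Ctla4 at -0.90 and Btla at -1.45, and with the local background Pdcd1 had a bound of -0.58, Ctla4 was at -0.94 and Btla at -0.92, so that only Btla with normexp kept its 2-fold difference under these 2 settings. Gzmb was 1.90-fold higher in the bone marrow, a log2 ratio of 0.93 ± 0.11, and Icos 1.45-fold higher, at 0.53 ± 0.12. Both differences exceeded 2 spot errors but not 2-fold. With the local background, Gzmb was not detected in the bone marrow and its ratio became a bound of the opposite sign, at -3.43. Lag3 was 1.32-fold lower, at -0.40 ± 0.17, and Prf1 had no fold because its bone marrow bound was under 1. The median over the 6 genes detected on both arrays was -0.98, beside -0.17 over all genes, and this comparison shares an array with each of the others.

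The scaling of the arrays bears on these ratios, since the bone marrow array had fewer detected probes. With the median taken over the probes detected on all 3 arrays, the all-gene median of the log2 ratio was 0.16 for bone marrow over spleen Venus+ cells and 0.05 for bone marrow Venus+ over B220+ cells. The split of all genes past 2-fold was then 1374 higher and 1126 lower in place of 566 and 2026 for bone marrow over spleen, and 3768 and 3086 in place of 3078 and 3882 for bone marrow over B220+ cells. With the 75th percentile in place of the median, it was 3392 higher and 1273 lower in place of 2342 and 2064 for spleen Venus+ over B220+ cells, and 4095 and 2729 for bone marrow Venus+ over B220+ cells. None of the 7 genes changed direction under these scalings. Gzmb passed 2-fold for bone marrow over spleen with both, at 1.26 with the probes detected on all arrays and 1.07 with the 75th percentile. Relative to the median of all genes, the bone marrow over spleen log2 ratio was -2.08 for Pdcd1, -1.54 for Ctla4, -1.38 for Btla and 1.10 for Gzmb.

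**Figure D3:**
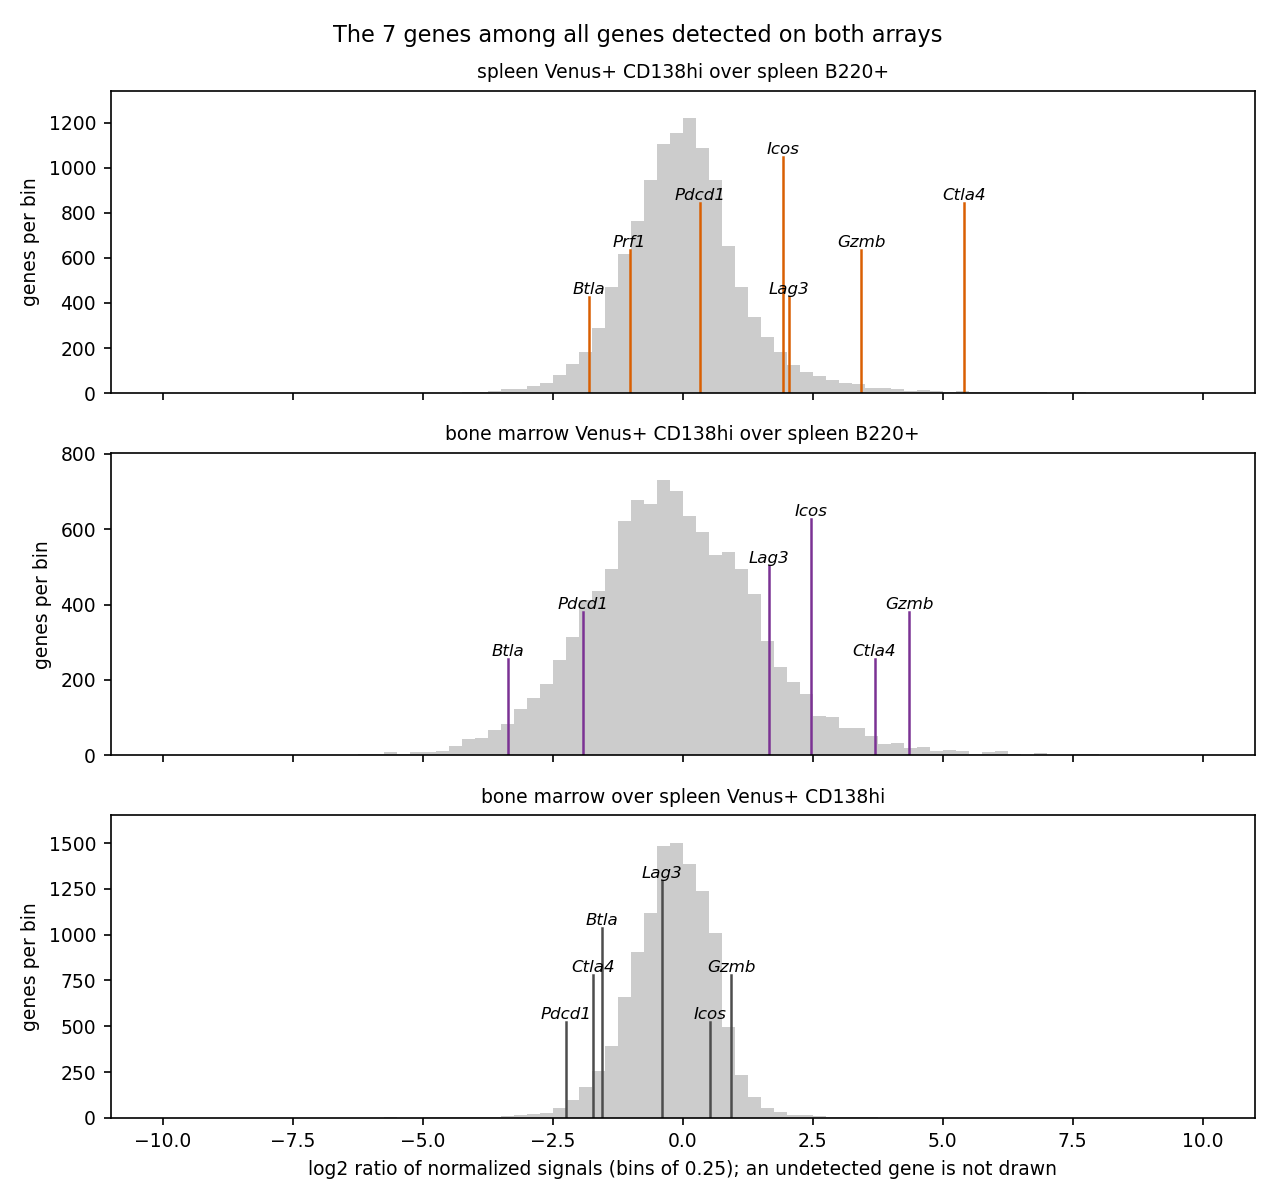
Distribution of the log2 ratio over the genes measured on both of the arrays compared (grey, genes per bin of 0.25), with a line for each of the 7 genes that was detected on both. Ctla4 and Gzmb lie in the right tail against B220+ cells in both tissues, Btla lies left of the centre in every panel, and Prf1 is drawn for the spleen alone.

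The counts of this and the following lists can be set beside the shares of all genes past 2-fold. The shares are over the genes detected on at least 1 array of a comparison. Against B220+ cells these were 18.1% higher and 15.9% lower in the spleen, and 23.9% and 30.1% in the bone marrow. For bone marrow over spleen Venus+ cells they were 4.49% higher and 16.1% lower. The ligands of the receptors were divided. Of 11 listed ligands and class II genes, 8 had a probe and 7 were detected on at least 1 array. In spleen Venus+ cells 2 were at least 2-fold higher and 3 lower than in B220+ cells, and in bone marrow Venus+ cells 2 were higher and 4 lower. Pdcd1lg2, which encodes the PD-1 ligand PD-L2, had 38.8 in bone marrow Venus+ cells and 53.4 in spleen Venus+ cells, against 13.2 in B220+ cells. Cd274, which encodes PD-L1, had 108 in bone marrow Venus+ cells and 185 in spleen Venus+ cells, against 109 in B220+ cells. Tnfrsf14, which encodes HVEM, the ligand of BTLA, had 30.8 in bone marrow Venus+ cells and 21.8 in spleen Venus+ cells, against 5.27 in B220+ cells, so receptor and ligand differed in opposite directions. Cd86, which encodes the ligand shared by CTLA-4 and CD28, had 4.35 in bone marrow Venus+ cells and 45.0 in spleen Venus+ cells, against 89.2 in B220+ cells. Icosl was detected in B220+ cells alone, at 23.1, and was at least 9.81-fold lower in bone marrow Venus+ cells and at least 13.3-fold lower in spleen Venus+ cells. The class II chain gene H2-Aa, part of the ligand of LAG-3, had 644 in bone marrow Venus+ cells and 6458 in spleen Venus+ cells, against 19932.8 in B220+ cells. Fgl1, another LAG-3 ligand, was not detected on any of the 3 arrays.

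Among costimulatory receptors, the largest ratios were those of Cd28, which had 477 in bone marrow Venus+ cells and 528 in spleen Venus+ cells, against 5.52 in B220+ cells, with log2 ratios of 6.43 ± 0.22 in the bone marrow and 6.58 ± 0.22 in the spleen. Cd28 and Ctla4, which encode receptors for the same ligands, were thus both high in the Venus+ populations, but Cd28 differed little between them, with a log2 ratio of -0.15 ± 0.11 for bone marrow over spleen. Of 10 such genes, 7 were detected on at least 1 array of each comparison with B220+ cells, and 2 were at least 2-fold higher in each Venus+ population. The other was Cd27, with 19.0 in bone marrow Venus+ cells and 21.1 in spleen Venus+ cells, against 6.22 in B220+ cells. Cd2, an adhesion and costimulatory receptor, had 8.38 in bone marrow Venus+ cells, against 284 in spleen Venus+ cells and 381 in B220+ cells. Cd40lg and Tnfrsf9 were not detected on any of the 3 arrays.

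Other inhibitory receptors of lymphocytes showed no common direction. Of 21 with a probe, 18 were detected in the spleen comparison with B220+ cells, of which 6 were at least 2-fold higher and 7 lower, with a median log2 ratio of -0.29. In the bone marrow comparison 5 of 17 passed the threshold upward and 8 downward, and the median was -0.88. Cd5, which encodes a negative regulator of antigen receptor signalling, had 7.71 in bone marrow Venus+ cells and 82.9 in spleen Venus+ cells, against 3.13 in B220+ cells, so that, as with Ctla4, the spleen Venus+ cells were the high ones. Cd200r1, which encodes an inhibitory receptor, had 3.95 in bone marrow Venus+ cells and 18.3 in spleen Venus+ cells, against 1.68 in B220+ cells. Entpd1, which encodes the ectonucleotidase CD39, had 71.9 in bone marrow Venus+ cells and 77.2 in spleen Venus+ cells, against 7.12 in B220+ cells. Vsir, which encodes VISTA, had 93.5 in bone marrow Venus+ cells and 86.7 in spleen Venus+ cells, against 14.6 in B220+ cells. The lowest ratios were those of the B cell inhibitory receptor genes Cd22, at -2.81 ± 0.14 in the spleen, and Cd72, at -6.81 ± 0.25 in the bone marrow, with Pecam1 next lowest in each tissue, at -2.14 in the spleen and -5.28 in the bone marrow. For bone marrow over spleen Venus+ cells, 8 of 18 were at least 2-fold lower and 1, Cd96, higher, with 311 in the bone marrow, against 132 in the spleen.

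Of the phosphatases and kinases that such receptors recruit, 8 were detected. In bone marrow Venus+ cells 6 were at least 2-fold lower than in B220+ cells, against 30.1% of all genes, and 1 was higher, with a median log2 ratio of -1.86. The number lower was 4 with normexp, with the probes detected on all arrays and with the 75th percentile, and 3 with the local background. In spleen Venus+ cells 1 was lower and 1 higher, with a median of -0.44. Ptpn6, which encodes SHP-1, had 267 in bone marrow Venus+ cells and 592 in spleen Venus+ cells, against 968 in B220+ cells. Inpp5d, which encodes the lipid phosphatase SHIP-1, had 23.4 in bone marrow Venus+ cells and 88.5 in spleen Venus+ cells, against 120 in B220+ cells. Ppp2ca, which encodes a phosphatase subunit, was under 2-fold in the bone marrow, at -0.75 ± 0.13. The gene that was higher was Ptpn11, which encodes SHP-2, with 5.94 in bone marrow Venus+ cells and 7.69 in spleen Venus+ cells and not detected in B220+ cells, which made it at least 4.42-fold higher in the bone marrow and at least 5.73-fold in the spleen. With normexp no gene of this list was higher in either tissue, and with the local background none was higher in the bone marrow.

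Few other granzyme genes were detected. Of 8 with a probe, 4 were detected in any population, and Gzma alone was at least 2-fold higher, with 8.87 in bone marrow Venus+ cells and 7.53 in spleen Venus+ cells, against 3.45 in B220+ cells. Gzma was not past 2-fold in either tissue with normexp, the local background or quantile scaling, nor in the spleen with a blank level per block. Gzmc, Gzme, Gzmg and Gzmk were not detected on any of the 3 arrays. Of 15 genes of granule content, maturation and exocytosis, 4 were at least 2-fold higher in each Venus+ population and 2 lower. Of all genes, 18.1% were higher and 15.9% lower in the spleen, and 23.9% and 30.1% in the bone marrow. Ctsw, which encodes the granule protease cathepsin W, had 72.0 in bone marrow Venus+ cells and 19.5 in spleen Venus+ cells and was not detected in B220+ cells. It was at least 53.6-fold higher in the bone marrow and at least 14.5-fold in the spleen. Calr, which encodes calreticulin, had 273 in bone marrow Venus+ cells and 199 in spleen Venus+ cells, against 67.4 in B220+ cells. Ctsc, which encodes the protease that activates granzymes, had 82.2 in bone marrow Venus+ cells and 197 in spleen Venus+ cells, against 397 in B220+ cells. Srgn, which encodes the granule proteoglycan serglycin, differed little, with 1957.0 in bone marrow Venus+ cells and 1971.3 in spleen Venus+ cells, against 2248.2 in B220+ cells. Lyst, which encodes a regulator of lysosome-related granules, was lower in spleen Venus+ cells, with a log2 ratio of -1.28 ± 0.65 that turned positive, at 0.07, with normexp and, at 0.26, with the local background.

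Of 5 serpins that inhibit granule or lysosomal proteases, 4 were at least 2-fold higher in bone marrow Venus+ cells than in B220+ cells, against 23.9% of all genes, and 3 in spleen Venus+ cells, against 18.1%. With normexp 2 were higher in the bone marrow and 1 in the spleen, and with quantile scaling 2 in each. Serpinb9, whose product inhibits granzyme B, had 89.1 in bone marrow Venus+ cells and 66.9 in spleen Venus+ cells, against 15.8 in B220+ cells, log2 ratios of 2.50 ± 0.15 in the bone marrow and 2.08 ± 0.15 in the spleen. Serpina3g, a serpin induced in activated lymphocytes, had 475 in bone marrow Venus+ cells and 441 in spleen Venus+ cells, against 100.4 in B220+ cells. Neither differed 2-fold between the Venus+ populations.

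**Figure D4:**
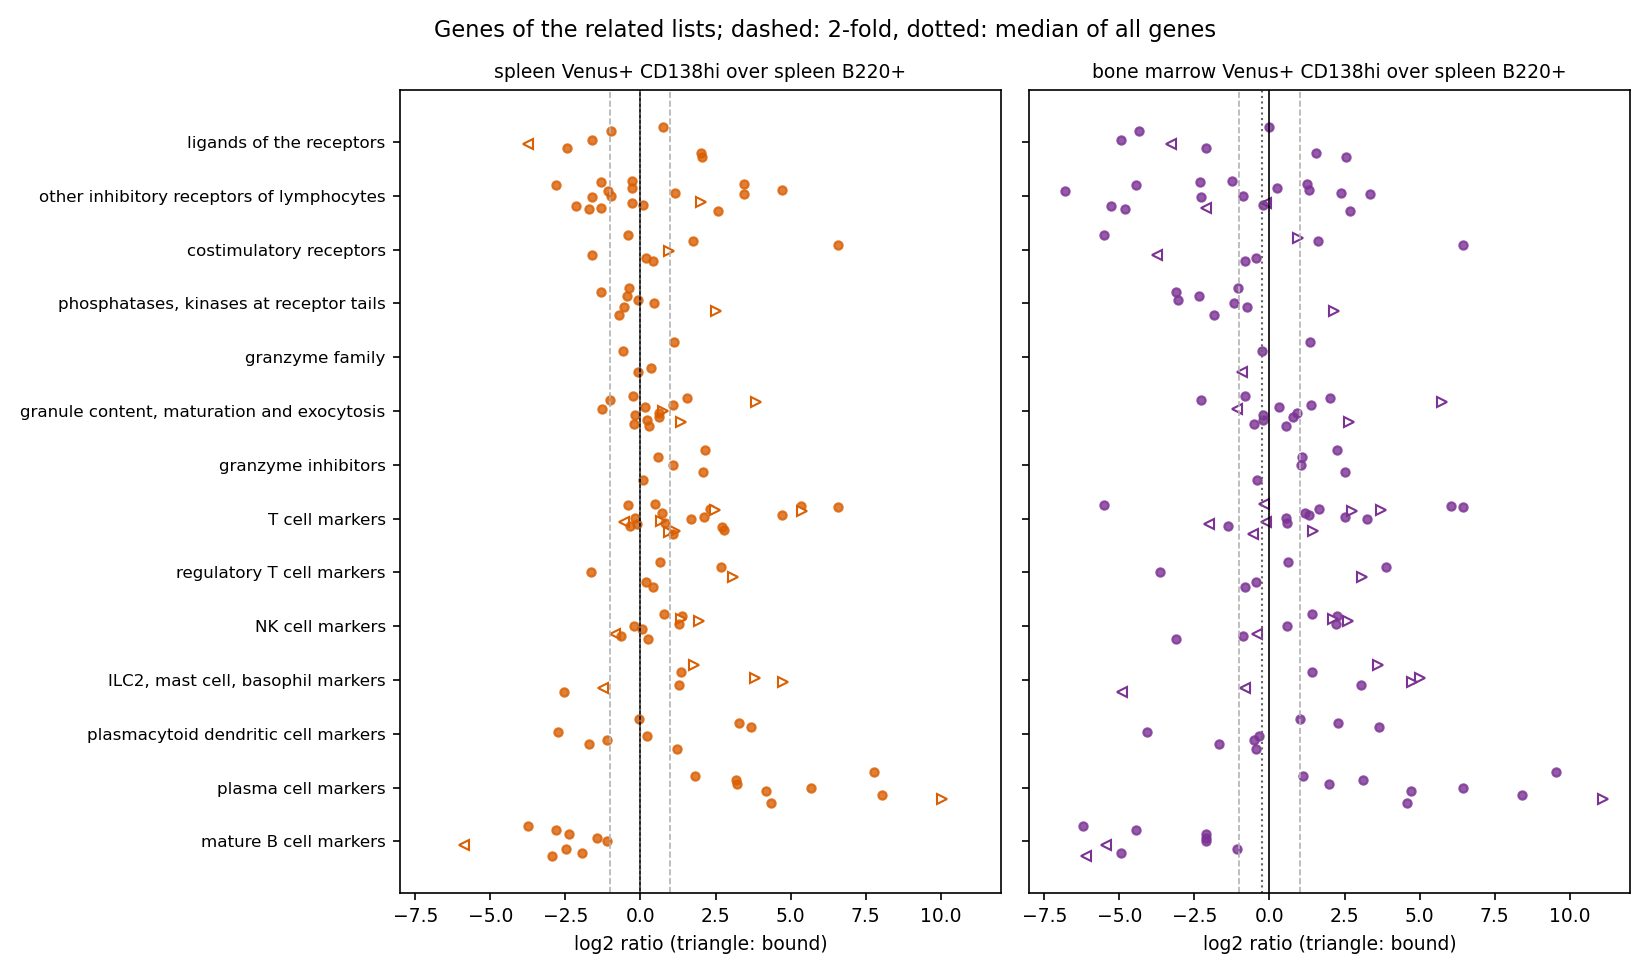
Log2 ratio of every gene of the related lists in spleen Venus+ cells (left) and bone marrow Venus+ cells (right) over B220+ cells, 1 point for each gene detected on both arrays and an open triangle for a bound. Plasma cell markers lie right of the upper 2-fold line and mature B cell markers left of the lower one, whereas ligands and other inhibitory receptors spread to both sides.

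Genes that mark other cells able to make these transcripts were read on the same arrays, and their part in the results was not tested. Of 24 T cell markers with a probe, 12 were at least 2-fold higher and 0 lower in spleen Venus+ cells than in B220+ cells, and 10 were higher and 3 lower in bone marrow Venus+ cells. The 3 lower ones were Cd2, with 8.38 in bone marrow Venus+ cells against 381 in B220+ cells, Skap1, with 3.42 against 8.97, and Lef1. Lef1 was not detected in bone marrow Venus+ cells and had 9.46 in B220+ cells. The summed signal of the list was 1703.4 in bone marrow Venus+ cells and 1758.0 in spleen Venus+ cells, against 471 in B220+ cells. Cd247 and Cd28 made up most of it in the Venus+ populations, and Cd2 most of it in B220+ cells. Cd247, which encodes the CD3 zeta chain, had 1038.3 in bone marrow Venus+ cells and 637 in spleen Venus+ cells, against 15.7 in B220+ cells. Cd3e had 17.8 in bone marrow Venus+ cells and 7.55 in spleen Venus+ cells. Cd3g had 8.95 in bone marrow Venus+ cells and 55.7 in spleen Venus+ cells, and neither was detected in B220+ cells. Cd8b1 had 53.4 in bone marrow Venus+ cells and 18.4 in spleen Venus+ cells, against 5.64 in B220+ cells, the order of Gzmb. Cd8a was under 2-fold in both, with 7.20 in bone marrow Venus+ cells and 4.39 in spleen Venus+ cells, against 4.94. Cd3d and Cd6 were at least 2-fold higher in each Venus+ population. Thy1 and Tcf7 were not detected in bone marrow Venus+ cells. In spleen Venus+ cells Thy1 had 11.2, against 1.64 in B220+ cells, and Tcf7 had 11.3, against 1.71 in B220+ cells. Themis and Cd40lg were not detected on any of the 3 arrays. Foxp3, the defining factor of regulatory T cells, was also not detected on any of them, and of 7 regulatory T cell markers 2 were higher and 1 lower in each Venus+ population, with summed signals of 162 in the bone marrow and 214 in the spleen, against 181 in B220+ cells. The higher ones were Ikzf2, with 39.3 in bone marrow Venus+ cells and 17.03 in spleen Venus+ cells, against 2.68 in B220+ cells, and Nrp1, which had 11.4 in each Venus+ population and was not detected in B220+ cells. The lower one was Il2ra, with 2.41 in bone marrow Venus+ cells and 9.74 in spleen Venus+ cells, against 30.5 in B220+ cells.

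Of 13 NK cell markers with a probe, 5 were at least 2-fold higher in bone marrow Venus+ cells and 4 in spleen Venus+ cells, and 1 was lower in bone marrow Venus+ cells. Fcer1g, a signalling chain that myeloid cells also use, had 165 in bone marrow Venus+ cells and 91.6 in spleen Venus+ cells, against 34.9 in B220+ cells. Klra4 had 7.91 in bone marrow Venus+ cells and 4.13 in spleen Venus+ cells, against 1.69 in B220+ cells, and Klra1 and Itga2 were detected in both Venus+ populations and not in B220+ cells. Eomes had 22.1 in bone marrow Venus+ cells and 13.9 in spleen Venus+ cells, against 8.16 in B220+ cells, and passed 2-fold in the bone marrow. The summed signal, which adds probes of unlike brightness, was 376 in bone marrow Venus+ cells and 425 in spleen Venus+ cells, against 432 in B220+ cells, where Tbx21 gave 268 and Tyrobp 108. Ncr1, the defining NK cell receptor, was not detected in either Venus+ population, and Klrk1, Xcl1 and Cd7 were not detected on any of the 3 arrays. Of 10 markers of type 2 innate lymphoid cells, mast cells and basophils with a probe, 7 were detected on at least 1 array of each comparison. Of these, 5 were higher in each Venus+ population. In spleen Venus+ cells 2 were lower, and in bone marrow Venus+ cells 1. Rora, lower in both, had 12.2 in spleen Venus+ cells, against 70.5 in B220+ cells. It was not detected in bone marrow Venus+ cells, which made it at least 29.96-fold lower there. Ms4a2, also lower in the spleen, was detected in B220+ cells alone. The summed signal of the list was 244 in the bone marrow and 120 in the spleen, against 93.9 in B220+ cells, 70.5 of it from Rora. Gzmb ran in the same order as this sum, and so did the T cell marker Cd8b1 and the summed plasma cell markers. The plasma cell markers summed to 40033.8 in bone marrow Venus+ cells and 30933.1 in spleen Venus+ cells, against 2550.2 in B220+ cells. Which cells gave the Gzmb signal was not tested. Mcpt8, a basophil protease gene, had 143 in bone marrow Venus+ cells and 43.0 in spleen Venus+ cells, against 17.5 in B220+ cells, and Gata2 had 43.2 in bone marrow Venus+ cells and 19.1 in spleen Venus+ cells and was not detected in B220+ cells. Fcer1a, Cma1 and Tpsb2, which mark mast cells or basophils, were not detected on any of the 3 arrays. Of 8 markers of plasmacytoid dendritic cells, 3 were higher in each Venus+ population, and 3 were lower in spleen and 2 in bone marrow Venus+ cells. Their summed signals were 10878.8 in the bone marrow and 7262.7 in the spleen, against 15841.9 in B220+ cells. Nearly all of each sum was Ly6d, with 10520.7 in bone marrow Venus+ cells and 6904.6 in spleen Venus+ cells, against 14827.8 in B220+ cells. Siglech had 12.09 in bone marrow Venus+ cells and 11.98 in spleen Venus+ cells, against 39.0 in B220+ cells. Cox6a2 had 52.1 in bone marrow Venus+ cells and 53.4 in spleen Venus+ cells, against 4.15 in B220+ cells, and Ccr9 had 20.25 in bone marrow Venus+ cells and 40.7 in spleen Venus+ cells, against 4.205 in B220+ cells.

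Genes whose signal followed the same course as each of the 7 were sought among 10769 genes detected on all 3 arrays, by the Euclidean distance between log2 signals centred on each gene's own mean. For Ctla4 the nearest were Echdc3, Rhob and Cacna1h, at distances of 0.72, 0.785 and 0.824, and 0 genes lay within 0.5. The Ctla4 ratios to B220+ cells have spot errors of 0.51 and 0.52, as wide as that distance, so the lack of near genes cannot be read as a trait of Ctla4. Within 0.5 lay 558 genes of Icos, 324 of Btla, 222 of Lag3, 86 of Pdcd1 and 79 of Gzmb. For Gzmb the nearest were Creb3l2, at 0.0383, Phf1 and Kazald1. For Btla they were Malt1, at 0.0252, Dpp4 and Pcf11, and for Pdcd1 they were Bmi1, at 0.0358, Chd1 and Olfr57. For Lag3 they were Chpf2, at 0.0585, Pdcd1lg2, at 0.0672, and Ccdc28b, and for Icos they were Ppp1r32, at 0.0125, Clptm1l and Crb3. With 3 arrays, a short distance describes 2 ratios and nothing more. Prf1, not detected in the bone marrow, was left out.

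**Figure D5:**
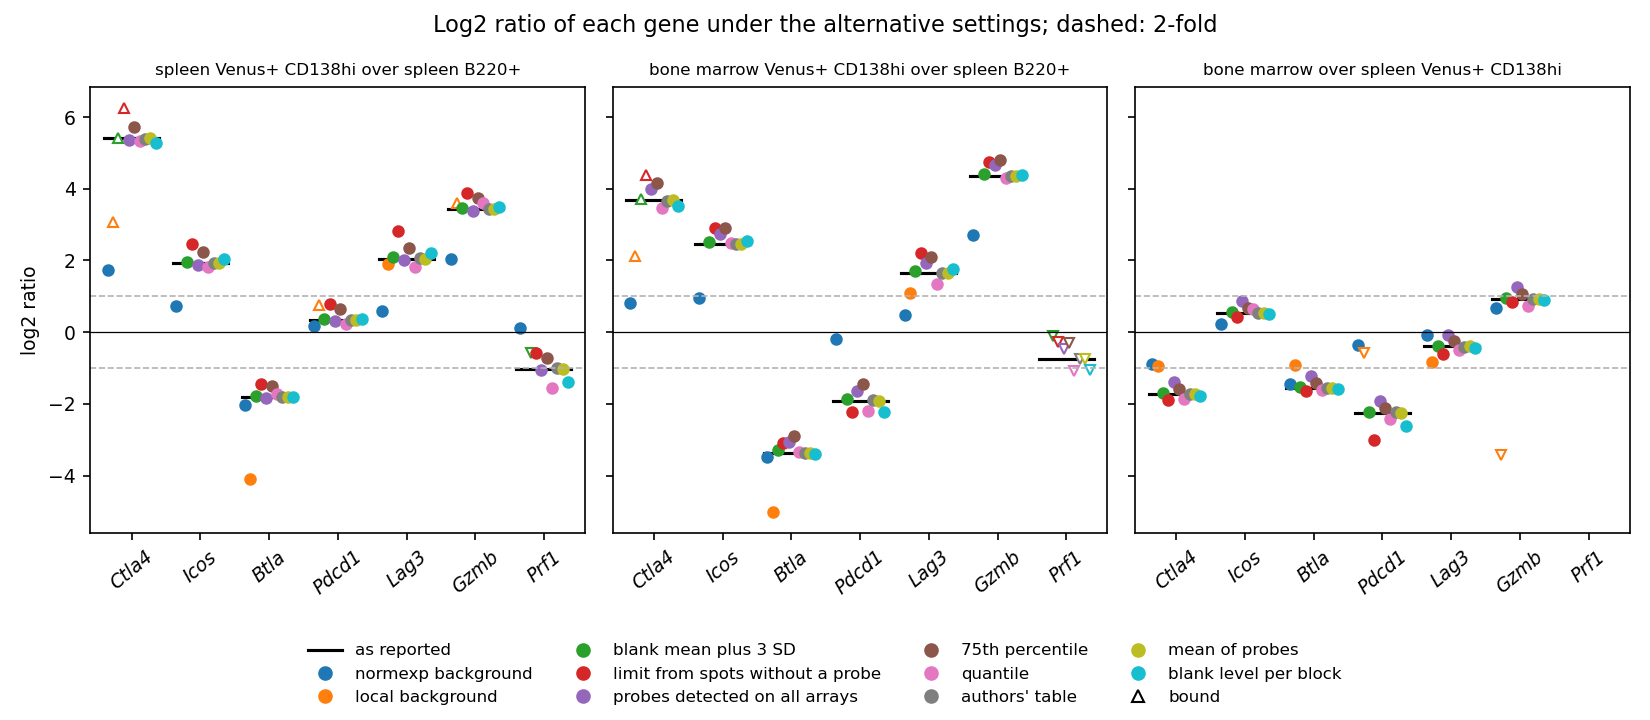
Log2 ratio of each of the 7 genes as reported (black line) and under 10 alternative settings (coloured points, open triangles for bounds), with dashed lines at 2-fold. For Ctla4 and Gzmb against B220+ cells, normexp (dark blue) gives smaller ratios than those reported, for Btla the local background (orange) gives lower ones, and Prf1 has no value for bone marrow over spleen.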

How the data were processed

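RNA of 3 sorted populations from IL-10 Venus reporter mice, 1 array each, was amplified, labelled with Cy5 and hybridized to a Toray 3D-Gene mouse array, per the labels. The deposited scanner files hold, per the file headers, the median intensity of each spot and a local background. The authors also deposited a table of processed intensity values, made, per the series' design text, by subtracting the blank level and setting the detected median to 25. It is linear and uncentred, and its columns each have a median of 25.

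All values were computed from the spot medians by that recipe. The blank level was the mean of the middle 90% of 2736 blank spots (2462 spots) and the detection limit that mean plus 2 SD. Detection calls differed from the authors' table for 0 probes. Where the table gives 10 or more, values differed by at most 2.89% in bone marrow Venus+, 4.05% in spleen Venus+ and 0.976% in B220+ cells. Flagged spots (2, 1 and 0 on these arrays) were left out. Of 1102 spots without a probe, 26.6%, 9.26% and 48.3% lay above the limit in that order of arrays. Precision is limited by having 3 arrays.

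The 23473 probes comprise 16631 with 1 gene symbol, 0 with several and 6842 with none in GEO's platform annotation. Symbols were updated through the RefSeq table of GRCm38.p6 (3947 updated, 62 kept as given). Where a gene had several probes, the one with the highest mean log2 signal stood for it. A gene was counted as higher or lower at 2-fold, with an undetected side replaced by the higher of the lowest detected signal and the probe's own. The calling was run on simulated spots built from the B220+ array, with changes set only in genes detected on all arrays. That simulation left out the excess signal of spots without a probe and changes in genes undetected on an array. Alternatives were normexp, the local background, other detection limits, scalings and fold thresholds, the authors' table, the mean of probes and a blank level per block. Named genes were the 7, and from each list the 2 highest and 2 lowest ratios, bounds over 10-fold, or any gene of lists of 11 or fewer. Srgn and the marker genes named beyond that rule were chosen after their values were seen. The 7 genes and the lists were chosen with earlier results of these data known. Python 3.11.15, numpy 2.4.6, pandas 2.3.3, matplotlib 3.10.9, R 4.3.3 and limma 3.58.1 were used.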

Additional observations from a re-analysis of the deposited data

Results flagged for a closer look

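Pdcd1 had log2 ratios of unlike sign to B220+ cells in the 2 tissues, at -1.92 in bone marrow Venus+ cells and 0.34 in spleen Venus+ cells. The spleen ratio was under 2-fold. The bone marrow spot was dim, and with normexp its ratio was -0.19. Both ratios use the same B220+ array, each population has 1 array, and the difference between the ratios was not tested.

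In spots that carry no probe and enter no gene value, 48.3% lay above the detection limit on the B220+ array, against 26.6% on the bone marrow Venus+ array and 9.26% on the spleen Venus+ array. Signals near the limit, such as those of Ctla4 in B220+ cells and of Prf1, are in the range of these spots.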

How the results depend on the processing

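The count of the 7 genes past 2-fold, 6 for each Venus+ population against B220+ cells and 3 for bone marrow over spleen, moved by more than 1.5 times with 2 settings. With normexp (offset 50) it was 3 for spleen Venus+ and 2 for bone marrow Venus+ cells against B220+ cells, and 1 for bone marrow over spleen. With the local background it was 3 for bone marrow Venus+ against B220+ cells and 1 for bone marrow over spleen. The log2 ratio of Prf1 for spleen Venus+ over B220+ cells turned to 0.11 with normexp. The cause was not tested. Of 192 log2 ratios of the 7 genes under 10 alternatives, 1 of which, the blank level per block, was added after seeing the data, 115 moved by less than the spot error (for a bound, which has none, by less than 0.01), 76 by more and 1 reversed. The mean of probes could not move a ratio, since each gene has 1 probe, and gave 20 of the 115. The authors' table follows the same recipe and gave 19. Ratios lost under a setting, such as those of Icos with the local background, are not among the 192. Ratios under 2-fold as reported are not among the reversals counted: Gzmb for bone marrow over spleen became a bound of -3.43 with the local background. Among listed genes, the sign also turned for Cd160 (0.07) and Skap1 (0.03) for bone marrow over B220+ cells with normexp, and with the local background for Gata2 for bone marrow over spleen (-0.12), Grb2 for spleen over B220+ cells (0.40) and Havcr2 (0.05 in the bone marrow and 0.40 in the spleen, over B220+ cells). With normexp, all genes past 2-fold numbered 435 higher and 1185 lower for spleen over B220+ cells, 625 and 2192 for bone marrow over B220+ cells, and 64 and 329 for bone marrow over spleen. With the background level and the detection limit both taken from the probe-free spots they were 3926 and 1191, 3508 and 3360, and 416 and 2938. No paired analysis was possible because each population has 1 array. Signal near background limits Ctla4 in B220+ cells, Pdcd1 in the bone marrow and Prf1 on every array.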
